A study of Mus musculus with 4 samples.

Results

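Igf1, Gas6, Tslp, Pdgfc, Metrnl, Nampt, Vegfa and Vegfb, 8 growth factor and adipokine genes of the 31053 genes in the deposited matrices, were followed across the marker-gated cell types of ChAT-eGFP+ cells. The genes were picked by name from a list drawn up with results of these data known, and all 8 were found by symbol. Cells expressing the green fluorescent protein under the Chat promoter were sorted from the stromal vascular fraction (SVF) of inguinal white adipose tissue (IWAT) of male ChATBAC-eGFP mice. Chat encodes choline acetyltransferase, the enzyme that makes acetylcholine. The transgene is a bacterial artificial chromosome, so the sort depended on where that copy of the promoter was active. The mice of both groups were 5 weeks old at the start, spent 3 weeks at thermoneutrality (30 °C) and were then kept at 30 °C or moved to 4 °C for 4 h, at about 8 weeks of age. The cold group also spent 24 h at room temperature before the challenge, a step that the 30 °C group did not share. Each temperature had 2 libraries, replicates 1 and 2, and each library held the cells of 4 pooled mice, so n = 2 per temperature for every comparison. In the tests of a single cell type p-values measure the spread between pools. The tests of a difference between 2 cell types took library as a factor. A shift shared by both types in a pool was thus left out of the spread behind those p-values.

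Secreted factors of these families link the immune and stromal cells of fat to each other. IGF1 signals growth and survival through IGF1R, GAS6 bridges dying cells to the receptors AXL, MERTK and TYRO3, and TSLP is an alarmin read by dendritic cells, T cells and ILC2 through CRLF2 paired with IL7R. PDGFC acts on PDGFRA of mesenchymal cells, VEGFA and VEGFB act on endothelial receptors, with the neuropilins as co-receptors, and meteorin-like (METRNL) is a factor known for acting on thermogenesis and on alternatively activated macrophages in fat. NAMPT, also called visfatin, is the rate-limiting enzyme of NAD salvage inside cells and is also released.

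After the cell filters, the 30 °C libraries kept 5191 and 5388 cells and the 4 °C libraries 5329 and 5345, with 53423899 to 54933486 unique molecular identifiers (UMIs) per library and a median of 7520 to 8068 UMIs per cell. Libraries shared 5 to 14 cell barcodes in pairs. Chat was found in every library, at 61.5 and 71.1 UMIs per 1000000 UMIs at 30 °C and at 80.4 and 89.9 at 4 °C. Ptprc, the gene of the pan-leukocyte antigen CD45, was at 500 and 510 and at 646 and 700. Both genes were thus higher in the cold libraries without overlap. Whether the cells that passed the sort differed between temperatures was not tested. A cell entered a gate when it held UMIs of at least 3 of that cell type's 6 marker genes, or 4 for plasma and stromal cells, and markers of no other type in that number. At 30 °C the macrophage gate held 160 and 184 cells, and at 4 °C it held 440 and 162, so replicate 1 at 4 °C stood apart with more macrophages. Between 148 and 225 cells per library entered no gate and 216 to 246 entered more than 1. Each gate was summed per library, and levels below are UMIs per 1000000 UMIs of the gate (CPM). They count 3' ends, are not divided by gene length, and are not compared between genes.

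In the mouse genome (GRCm38, GENCODE M21) Igf1 (ENSMUSG00000020053) lies at chr10:87858265-87937042 on the plus strand, Metrnl (ENSMUSG00000039208) at chr11:121701544-121716306 on the plus strand and Pdgfc (ENSMUSG00000028019) at chr3:81036416-81214040 on the plus strand. Vegfa (ENSMUSG00000023951) lies at chr17:46016993-46032369 and Vegfb (ENSMUSG00000024962) at chr19:6982473-6987651, both on the minus strand. Gas6 (ENSMUSG00000031451) occupies chr8:13465374-13494490 on the minus strand and Nampt (ENSMUSG00000020572) chr12:32819545-32853349 on the plus strand. Nampt holds the long noncoding gene Gdap10 on the same strand, so reads of that stretch may not be separable. The other 7 genes overlap no gene on their own strand. The bases before the RefSeq starts of Gas6, which rose in macrophages at 4 °C, and of Nampt, which fell in the stromal gate, are printed here. Both windows lie outside annotated exons, and they differ in their letters. They are the 250 bases before the RefSeq start (GRCm38.p6), written 5′ to 3′ on the gene's strand. The Nampt window lies inside the Nampt span given above, downstream of its GENCODE start. Capitals mark TGACG, the core of the cAMP response element, and ACGTG or GCGTG, the core of the hypoxia response element, on either strand.
Gas6, chr8:13494536-13494785, minus strand: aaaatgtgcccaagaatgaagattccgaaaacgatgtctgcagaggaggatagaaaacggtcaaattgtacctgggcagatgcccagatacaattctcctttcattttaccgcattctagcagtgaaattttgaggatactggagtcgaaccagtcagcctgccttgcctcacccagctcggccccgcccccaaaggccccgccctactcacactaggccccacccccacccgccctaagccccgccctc
Nampt, chr12:32820085-32820334, plus strand: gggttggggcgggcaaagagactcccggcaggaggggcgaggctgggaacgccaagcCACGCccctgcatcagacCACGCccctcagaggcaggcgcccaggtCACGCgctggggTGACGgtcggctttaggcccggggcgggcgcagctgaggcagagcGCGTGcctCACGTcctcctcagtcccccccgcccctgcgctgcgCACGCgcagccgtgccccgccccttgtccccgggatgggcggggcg
The Gas6 window held none of these letters. The Nampt window held 6 matches of the hypoxia core and 1 of TGACG, counting both strands and overlaps. Of 32851 promoter windows of this length, 38.6% held a hypoxia core and 17.8% held TGACG. The full element TGACGTCA was in 1.55% of all windows and in none of the windows of these genes. RefSeq windows matched 7 of the 8 genes; Tslp had none. The Igf1, Metrnl, Pdgfc and Vegfb windows held 1, 1, 0 and 2 hypoxia cores and no TGACG. Vegfa has 2 windows, of which 1 held 2 hypoxia cores and 1 TGACG and the other held none of these letters. A match of letters is a description and not a binding site.

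Igf1 came mainly from macrophages. The macrophage gate held 70.8% and 76.7% of all Igf1 UMIs of a library at 30 °C and 74.9% and 69.9% at 4 °C. Its level there was 237 and 269 CPM at 30 °C, and stromal cells reached 325 and 206 CPM and lymphatic endothelial cells 48.8 and 132 CPM. In B cells, taken as cells that should lack the gene, the level was 0.21 to 0.51 CPM and 0.12% to 0.31% of cells held a UMI, at a median depth of 7935 to 8433 UMIs per cell. The ILC2, T and plasma gates lay at 0 to 1.77 CPM and the dendritic cell gate at 0 UMIs in all 4 libraries, close to this background. Of macrophages, 69.4% and 70.1% held an Igf1 UMI at 30 °C and 84.3% and 82.7% at 4 °C. At an equal depth of 4000 UMIs per cell these shares were 52.0%, 54.7%, 73.4% and 72.4% in the same order, with the shallower cells left out.

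Gas6 had the same main source, with 70.8% to 75.8% of its UMIs in macrophages. The macrophage levels were 486 and 393 CPM at 30 °C, against 384 and 345 CPM in stromal cells and 168 and 193 CPM in lymphatic endothelial cells. The stromal sums rested on few cells, since 1 cell held 47 of the 72 UMIs of replicate 2 at 30 °C. B cells had 0.25 to 1.13 CPM. Within macrophages, Gas6 lay at 497 to 733 CPM in the subgate with both Mrc1 and Folr2, genes of resident tissue macrophages, and at 23.6 to 82.3 CPM in the cells with Itgax or Trem2, genes of lipid-associated macrophages, without that pair. The ranges did not overlap, but the second subgate held 11 to 48 cells per library. Igf1 lay at 281 to 528 and 56.5 to 255 CPM in the same subgates, also without overlap.

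Tslp and Pdgfc were found almost wholly outside the lymphoid gates. Macrophages held 55.9% and 66.7% of the 34 and 24 Tslp UMIs found at 30 °C, and 82.1% and 80.3% of the 224 and 71 in the cold libraries. Stromal cells gave 2 to 4 Tslp UMIs per library and lymphatic endothelial cells 0 to 7. Dendritic cells gave none at 30 °C but 2 and 3 in the cold libraries, and the B, plasma, ILC2 and T gates gave 0 or 1 UMI each in every library. The Mrc1 and Folr2 subgate held 17 of the 19 macrophage UMIs in replicate 1 and 15 of the 16 in replicate 2 at 30 °C, and 179 of 184 and 57 of 57 at 4 °C. Pdgfc had 76.5% to 90.5% of its 85 to 128 UMIs per library in macrophages, at 28.4 to 48.5 CPM, and 9.83 to 37.0 CPM in stromal cells, from 2 to 8 UMIs. The ILC2, γδT, other T and plasma gates held no Pdgfc UMI in any library.

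Metrnl was spread over more cell types. Macrophages, at 119 and 160 CPM, and stromal cells, at 103 and 101 CPM, were the highest at 30 °C, and dendritic cells (40.8 and 24.7 CPM) and ILC2 (30.0 and 33.6 CPM) came next with overlapping values. Foxp3+ regulatory T cells (Tregs) had 14.9 and 11.3 CPM, other T cells 5.65 and 6.80 CPM, and B cells 0.73 and 0.66 CPM. Macrophages held 29.3% to 62.0% of Metrnl UMIs and Tregs 11.2% to 18.0%. The cells of no gate had 35.1 to 53.6 CPM, so some Metrnl came from cells without a name here.

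Nampt and Vegfb were found in every gate. B cells, the most numerous gate, held 39.9% to 50.5% of Nampt UMIs and 36.1% to 48.5% of Vegfb UMIs. As a level in CPM, Nampt at 30 °C was highest in stromal cells (266 and 249 CPM), followed by lymphatic endothelial cells and macrophages (83.4 to 107 and 80.6 to 88.0 CPM, overlapping). Dendritic cells had 47.9 and 32.9 CPM and B cells 25.1 and 24.8 CPM, and plasma cells were lowest (8.03 and 4.85 CPM). Vegfb varied little, from 7.84 CPM in Tregs to 30.9 CPM in ILC2 in the immune gates over all libraries, and of the named gates the lymphatic endothelial (26.8 to 79.0 CPM, 5 to 18 UMIs) and stromal (9.58 to 45.3 CPM) gates reached beyond that range. Vegfa was scarce, with 39 to 117 UMIs per library. Stromal cells were highest at 51.7 and 38.3 CPM at 30 °C, from 7 and 8 UMIs, and macrophages had 2 to 8 UMIs per library (1.10 to 5.31 CPM).

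**Figure D1:**
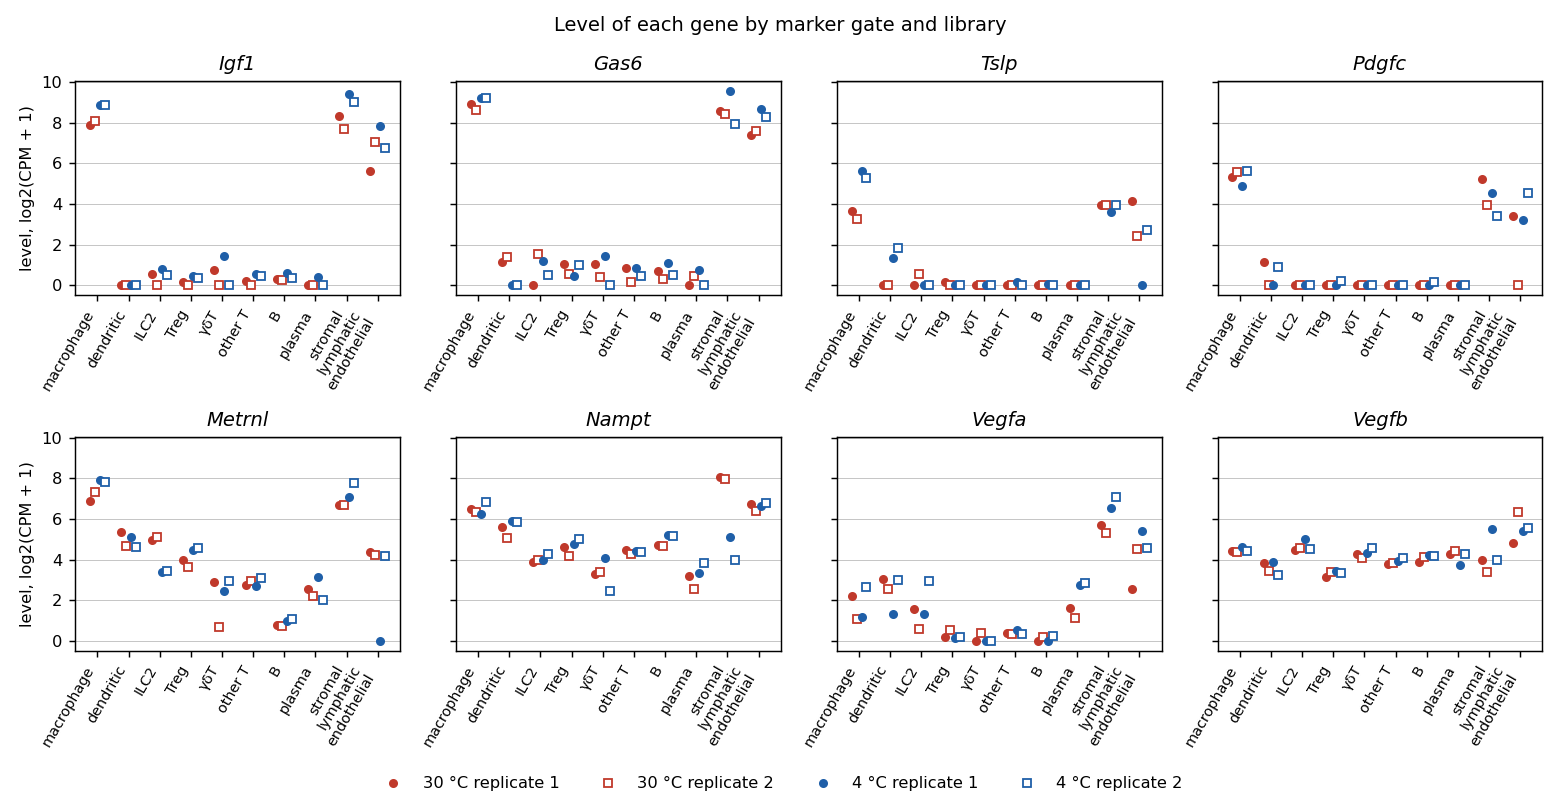
Level of each gene as log2(CPM + 1) on the y axis in 10 marker gates on the x axis, 1 point per library (red 30 °C, blue 4 °C, circles replicate 1, squares replicate 2). Igf1 and Gas6 stood high in the macrophage, stromal and lymphatic endothelial gates and near 0 elsewhere, Tslp and Pdgfc stood above 0 in all 4 libraries of the macrophage and stromal gates alone, and Vegfb lay between 7.84 and 30.9 CPM in all immune gates.

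**Figure D2:**
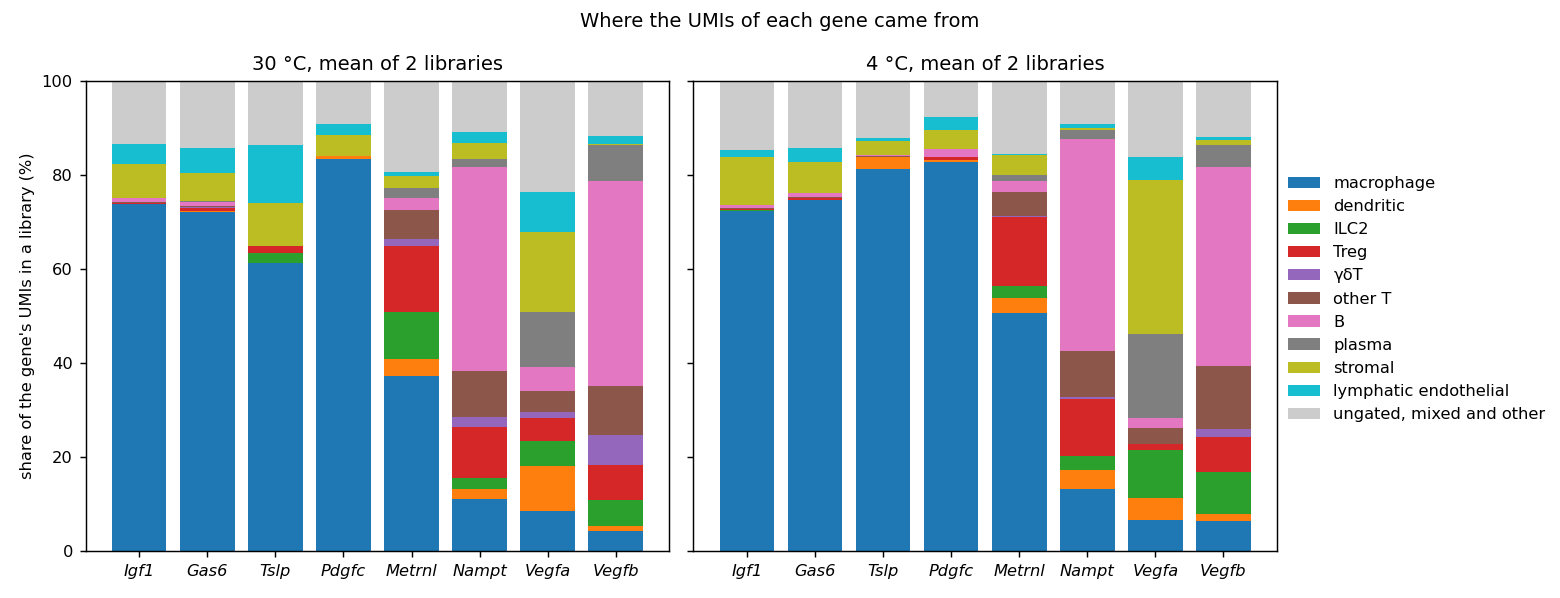
Share of each gene's UMIs in a library (y axis, %) by gate, as the mean of the 2 libraries at 30 °C (left) and at 4 °C (right). Macrophages, in blue at the base, held most Igf1, Gas6, Tslp and Pdgfc UMIs, and B cells, in pink, held most Nampt and Vegfb UMIs of any gate.

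The first comparison asked which of the 8 genes differed in macrophages between the cold and the thermoneutral libraries. The cold group alone had first spent 24 h at room temperature. No contrast of the temperatures here, in any gate, can therefore separate that step from the 4 h at 4 °C. Igf1, Tslp, Metrnl and Gas6 rose, and Pdgfc, Vegfb and Nampt did not pass the test, so 4 of the 7 tested genes were called, each of them higher at 4 °C. Of all 9272 genes tested in the gate, 17.1% were called and 8.91% were called higher. The median change of the 7 genes was 0.39 on the log2 scale, beside 0.00 for all genes tested (edgeR's quasi-likelihood test, Benjamini-Hochberg adjusted over all genes). The genes were named with such changes known, so these p-values are not independent support. The same holds for the p-values of the 8 genes in the other gates and between gates below.

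Igf1 stood at 237 and 269 CPM at 30 °C, against 472 and 462 CPM at 4 °C. Both cold libraries lay above both libraries at 30 °C and close to each other. The rise was 0.84 ± 0.10 (SE) on the log2 scale, 1.79-fold (edgeR adjusted p = 0.00023). Tslp stood at 11.6 and 8.77 CPM under thermoneutrality and 48.0 and 37.9 CPM after cold, from 19, 16, 184 and 57 UMIs. It rose 4.20-fold, by 2.07 ± 0.24 on the log2 scale (edgeR adjusted p = 0.00015). The share of macrophages with a Tslp UMI was 10.6% and 7.07% at 30 °C and 25.2% and 22.2% at 4 °C, and at 4000 UMIs per cell it was 4.55%, 3.34%, 16.6% and 14.6%. Most macrophages thus held no Tslp UMI at either temperature, at this depth.

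Metrnl was measured at 119 and 160 CPM in the 30 °C libraries and at 242 and 224 CPM in the cold ones, without overlap. The rise was 0.70 ± 0.14, 1.62-fold (edgeR adjusted p = 0.0048). Gas6 was measured at 486 and 393 CPM at 30 °C, against 593 and 592 CPM at 4 °C, again without overlap. Its rise was the smallest of the 4, 0.39 ± 0.11 or 1.31-fold (edgeR adjusted p = 0.031). It missed the threshold with DESeq2 (adjusted p = 0.060), with stricter gates (0.51) and without replicate 2 at 30 °C (0.18) or either cold replicate (0.16 and 0.14). Without replicate 1 at 4 °C, the library rich in macrophages, Metrnl also missed it (0.64, adjusted p = 0.073), which left 2 genes called, Igf1 and Tslp.

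Pdgfc stood at 39.7, 47.1, 28.4 and 48.5 CPM in the order of 30 °C replicates 1 and 2 and 4 °C replicates 1 and 2, with a change of -0.34 ± 0.24 (edgeR adjusted p = 0.39). The cold libraries lay on both sides of those at 30 °C. Vegfb stood at 20.2, 19.7, 23.7 and 20.6 CPM and changed by 0.13 ± 0.22 (edgeR adjusted p = 0.73). Nampt stood at 88.0, 80.6, 75.1 and 113.6 CPM and changed by 0.06 ± 0.18 (edgeR adjusted p = 0.88), with the cold replicates again on either side. Vegfa was below edgeR's filter on low counts.

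**Figure D3:**
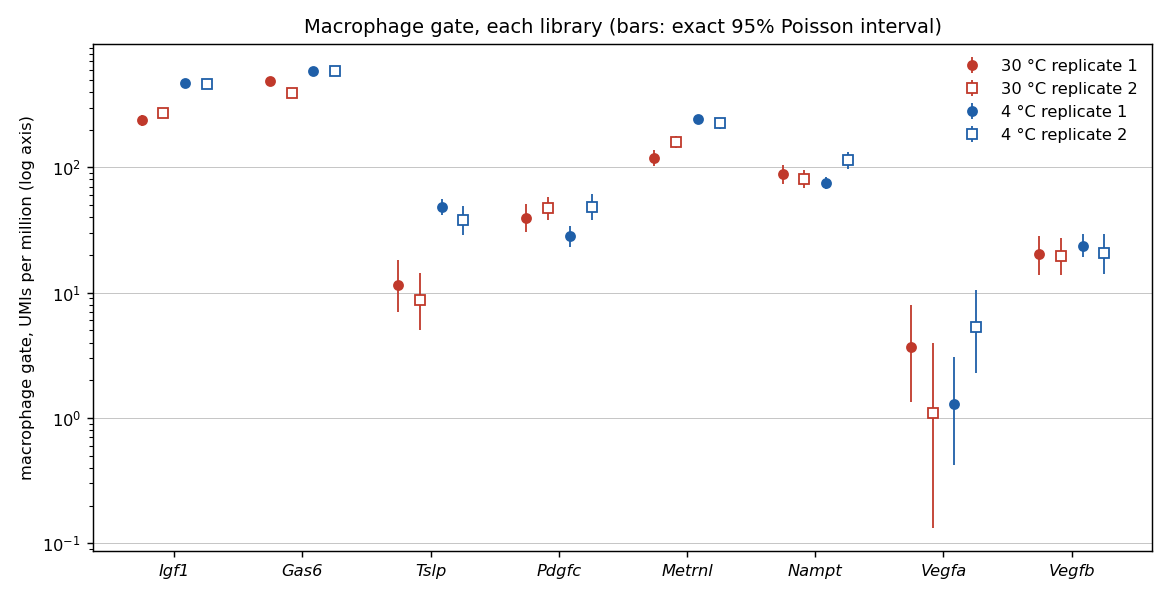
Level of the 8 genes in the macrophage gate (y axis, CPM, log axis), 1 point per library, with exact 95% Poisson intervals that cover counting error only. For Igf1, Tslp, Metrnl and Gas6 both blue points (4 °C) lay above both red points (30 °C), and for Pdgfc and Nampt the colours overlapped.

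In the Mrc1 and Folr2 subgate, with 126 and 143 cells at 30 °C and 341 and 129 at 4 °C, the same 4 genes were called higher (18.1% of all genes were called there, 9.54% higher). The rises were 0.80 ± 0.10 for Igf1, 2.16 ± 0.25 for Tslp, 0.62 ± 0.12 for Metrnl and 0.37 ± 0.11 for Gas6 (edgeR adjusted p at most 0.024). Gas6 missed the threshold there with DESeq2 (adjusted p = 0.11), with stricter gates (0.33) and without replicate 2 at 30 °C (0.21) or replicate 1 at 4 °C (0.056), and Metrnl missed it without replicate 1 at 30 °C (0.060). Pdgfc changed by -0.26 ± 0.24 and Nampt by -0.15 ± 0.19, neither called. Without replicate 2 at 4 °C, Pdgfc was called lower (-0.62, adjusted p = 0.047). The Itgax or Trem2 subgate had too few cells for a fit. There Metrnl was 113, 222, 336 and 291 CPM in the same order of libraries, without overlap of temperatures, and Tslp was at 0 UMIs in 3 libraries and at 3 in replicate 1 at 4 °C. Nampt was 106, 51.9, 151 and 241 CPM in this subgate, from 15, 11, 92 and 53 UMIs, also higher at 4 °C without overlap. Pdgfc, from 2, 2, 5 and 0 UMIs, was lower in CPM in both cold libraries. Igf1 (56.5, 255, 196 and 250 CPM) and Gas6 (42.4, 23.6, 82.3 and 40.9 CPM) overlapped between temperatures.

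Markers of other cells in the macrophage gate were low beside the macrophage markers, but the adipocyte, neutrophil and dendritic cell lists differed between temperatures. The B and ILC2 lists summed to 53.2 and 81.9 CPM in replicate 1 at 30 °C. The 6 macrophage markers summed to 10483 to 11618 CPM, the plasma list to 287 to 313, the T list to 19.2 to 26.9, the stromal list to 21.6 to 33.6 and the lymphatic endothelial list to 0.55 to 1.99. Mrc1 and Folr2 summed to 2883 and 2572 CPM at 30 °C and to 2466 and 2410 at 4 °C, and Itgax and Trem2 to 147 and 121 and to 169 and 214. The adipocyte list moved with temperature, 340 and 322 CPM at 30 °C and 167 and 150 at 4 °C, with Fabp4 at 258, 231, 116 and 103 CPM and the defining gene Adipoq at 0 to 2.61. The neutrophil list was 325 to 359 and 495 to 496 CPM, of which Mmp9 was 314 to 344 and 471 to 472, and S100a9, Retnlg and Cxcr2 were at 0 in all 4 libraries. The dendritic cell list was 22.5 to 23.8 and 37.5 to 50.5 CPM. Their part in the changes was not tested.

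Summed over all kept cells, none of the 8 genes was called (0.438% of all genes were). An unadjusted edgeR p under 0.05 was found for 5 of the 8, and for 3115 of all 15076 genes tested. DESeq2 called 1 of the 8, Tslp, and 848 of all genes. Igf1 stood at 10.3 and 11.9 CPM under thermoneutrality and 44.0 and 18.2 CPM after cold, and Tslp at 0.64, 0.45, 4.08 and 1.30 CPM. Replicate 1 at 4 °C, with 440 macrophages, was highest for both. With 1 replicate left out in turn, the log2 change of Igf1 lay between 0.65 and 1.88 and that of Tslp between 1.20 and 2.79. In such a whole-sample sum, more macrophages and more RNA per macrophage cannot be told apart.

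The second comparison asked whether the other cell types moved as macrophages did. Metrnl fell in ILC2, where it stood at 30.0 and 33.6 CPM in the 30 °C libraries and at 9.38 and 9.91 CPM in the cold ones. The temperatures lay far apart beside the spread within each. The change was -1.79 ± 0.21 on the log2 scale, 3.45-fold lower (edgeR adjusted p = 0.00055). Of all 8920 genes tested in ILC2, 5.15% were called and 3.06% were called lower, and of the 3 tested members Metrnl was the one called. ILC2 with a Metrnl UMI were 17.9% and 20.4% at 30 °C and 8.15% and 6.93% at 4 °C, and at 4000 UMIs per cell 11.6%, 13.2%, 3.69% and 3.86%. The call was lost without replicate 1 or replicate 2 at 4 °C (adjusted p = 0.42 and 0.27), where the change stayed at -1.75 and -1.81. Cd3e was at 0 in this gate by its rule, so that value says nothing about T cells in it. The ILC2 marker list summed to 1369 and 1289 CPM under thermoneutrality and to 1502 and 1878 CPM after cold. The T list summed to 343 to 491 CPM. Whether these moved Metrnl was not tested.

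The change of Metrnl differed between macrophages and ILC2 by 2.46 ± 0.26 on the log2 scale (edgeR interaction, adjusted p = 2.7e-11), where 7.41% of all genes differed. It was past the threshold under each alternative for which the interaction was fitted. Against B cells, other T cells, Tregs, γδT cells and dendritic cells, no member tested in both gates passed the test of the difference (edgeR, adjusted p between 0.077 and 1). The backgrounds there were 4.92%, 7.44%, 7.58%, 3.75% and 2.23%. Before adjustment, 2 of these differences had a p under 0.05, that of Metrnl against other T cells (0.72 ± 0.25, adjusted 0.077) and against dendritic cells (1.00 ± 0.36, adjusted 0.22).

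In Tregs, Metrnl stood at 14.9 and 11.3 CPM at 30 °C, against 21.5 and 22.5 CPM at 4 °C. The temperatures did not overlap, and the rise was 0.67 ± 0.16, 1.60-fold (edgeR adjusted p = 0.030), 1 call among 3 tested members where 5.57% of all genes were called and 2.52% were called higher. It missed the threshold with DESeq2 (adjusted p = 0.13), with the upper limit of genes removed (0.085), with stricter gates (0.26) and without replicate 2 at 30 °C (0.20). In other T cells Metrnl stood at 5.65, 6.80, 5.58 and 7.51 CPM and in dendritic cells at 40.8, 24.7, 34.0 and 23.3 CPM, and in both gates the temperatures overlapped. In γδT cells it rested on 18, 2, 5 and 3 UMIs and in plasma cells on 19, 9, 22 and 9.

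Nampt fell in the stromal gate, from 266 and 249 CPM at 30 °C to 34.0 and 14.7 CPM at 4 °C. These values came from 36, 52, 12 and 3 UMIs in 20, 24, 29 and 22 cells, of which 12, 10, 8 and 3 held a UMI. The change was -3.26 ± 0.42 on the log2 scale, 9.60-fold lower (edgeR adjusted p = 0.010), 1 call among 5 tested members where 0.544% of 3309 genes were called and 0.484% were called lower. Without replicate 1 at 4 °C it was -4.09 with an adjusted p of 0.36. It differed from the change in macrophages by 3.29 ± 0.46 (edgeR interaction, adjusted p = 7.0e-10, background 1.67%), a test picked once the values were known. The stromal cells themselves differed in depth, with medians of 4272 and 6978 UMIs per cell at 30 °C and 13192 and 12154 at 4 °C. The adipocyte list was 7.39, 3398, 465 and 172 CPM there, nearly all Fabp4 except in replicate 1 at 30 °C, which held none of it, with Adipoq, Plin1 and Cidec at 0, and the macrophage list was 44.4, 67.1, 280 and 54.1 CPM. Their part in the fall was not tested.

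Igf1 in the stromal gate stood at 325 and 206 CPM under thermoneutrality and 674 and 526 CPM after cold, without overlap. Its change of 1.19 ± 0.32 missed the threshold (edgeR adjusted p = 0.18). It was called in 1 of the 6 alternatives that kept all libraries (edgeR adjusted p = 0.023). The change in macrophages minus this one was -0.38 ± 0.34, which did not pass the test of the interaction (edgeR adjusted p = 0.89). The same differences for Gas6 (0.04 ± 0.33) and Metrnl (-0.08 ± 0.41) did not pass it. Vegfa stood at 51.7, 38.3, 93.5 and 132.7 CPM, from 7, 8, 33 and 27 UMIs, and its change of 1.32 ± 0.42 was not called either (edgeR adjusted p = 0.27). Gas6 stood at 384, 345, 762 and 246 CPM, where 1 cell held 102 of the 269 UMIs of replicate 1 at 4 °C. Lymphatic endothelial cells were too few at 4 °C (12 and 14) for a fit. Their Gas6 level was 168 and 193 CPM at 30 °C, against 412 and 307 CPM at 4 °C, and their Igf1 level was 48.8, 132, 230 and 108 CPM.

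Among the remaining lymphoid gates no member was called. In B cells Nampt stood at 25.1 and 24.8 CPM in the 30 °C libraries and at 35.6 and 34.3 CPM in the cold ones, without overlap. The change was 0.40 ± 0.08, which missed the threshold (edgeR adjusted p = 0.083) in a gate where 1.32% of all genes were called. It passed with the replicate number as a block (edgeR adjusted p = 0.048) and with no filter on low counts (0.014). Those fits called 515 and 770 of all genes, against 157 in the main fit. Leaving out 1 replicate in turn, the change lay between 0.35 and 0.44. Nampt in Tregs was 23.7, 17.1, 26.7 and 30.9 CPM, with a change of 0.42 ± 0.15 (edgeR adjusted p = 0.14). Vegfa in plasma cells was 2.07, 1.21, 5.71 and 6.13 CPM, from 8, 3, 16 and 18 UMIs, with a change of 1.77 ± 0.46 (edgeR adjusted p = 0.20, background 0.922%). By edgeR, 0 members were called in the B, plasma, other T, γδT and dendritic cell gates. In that order, 1, 1, 0, 0 and 0 members had an unadjusted edgeR p under 0.05. Of all genes tested, 1964 of 11907, 842 of 7372, 1908 of 11033, 1661 of 8844 and 898 of 6951 did. DESeq2 called 0 members in each gate, and 349, 77, 150, 155 and 75 of all genes. The backgrounds of the other T, γδT and dendritic cell gates were 2.16%, 4.64% and 0.978%. Vegfb was tested in 8 single gates and called in none, with changes between -0.29 and 0.25.

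**Figure D4:**
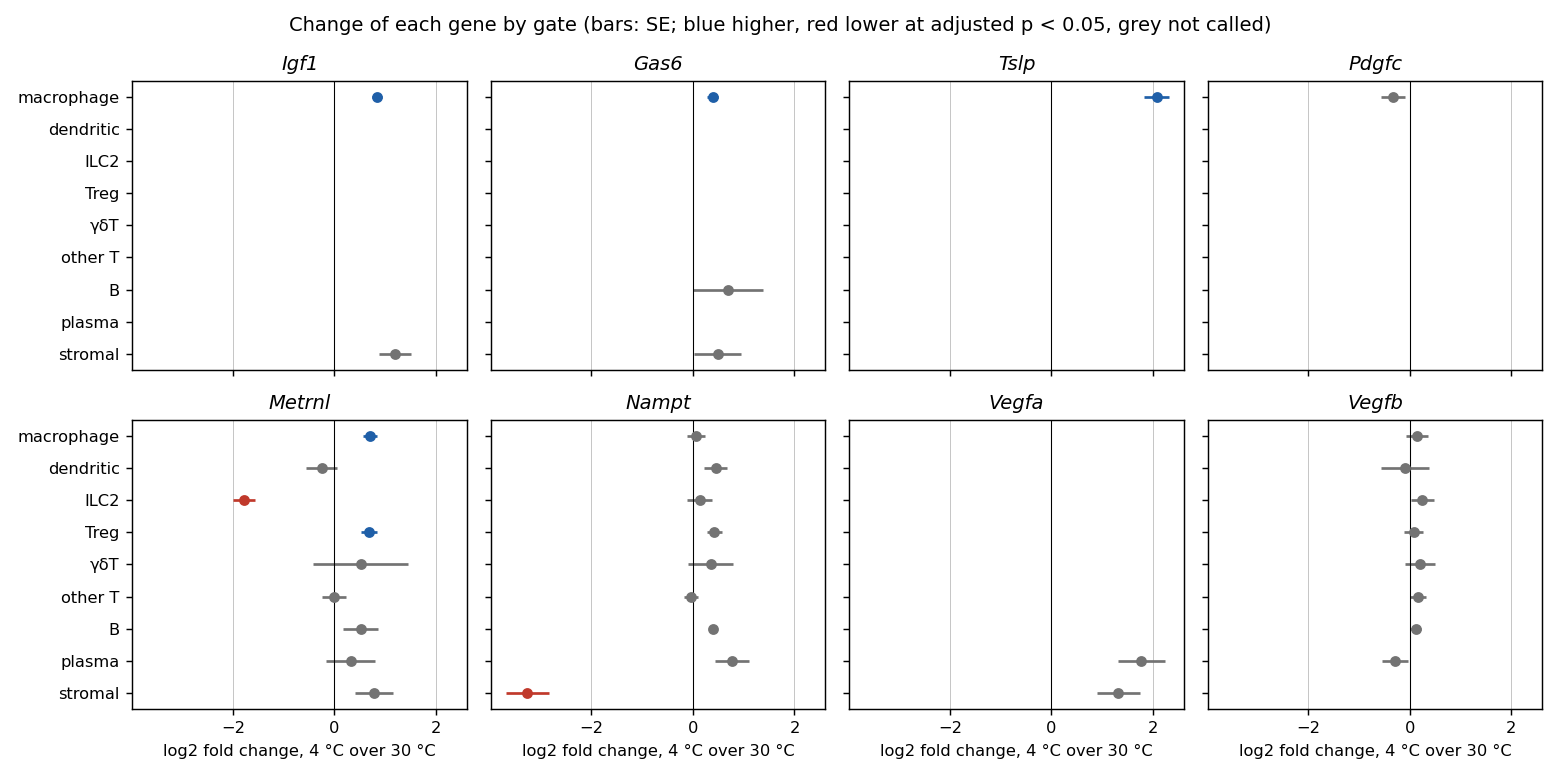
Change of each gene from 30 °C to 4 °C (x axis, log2 fold change, bars SE) in each gate where it was tested (y axis). Blue points (adjusted p under 0.05, higher at 4 °C) are in the macrophage and Treg rows and red points (lower) are Metrnl in ILC2 (-1.79) and Nampt in the stromal gate (-3.26).

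Genes related to the 8 factors were followed as 7 lists with 99 genes, picked by function with earlier results of these data known. Of the 13 receptor genes, 7 were tested in macrophages, of which 2 were called higher and 2 lower, and the median change was -0.17 beside 0.00 over all genes. Of all 9272 genes tested in macrophages, 17.1% were called, 826 higher and 758 lower. Mertk, the receptor for GAS6 by which macrophages clear dying cells, fell from 125 and 146 CPM to 43.5 and 50.5 CPM, by 1.60 ± 0.14 on the log2 scale (edgeR adjusted p = 2.3e-05). Axl, the other GAS6 receptor found there, stood at 165, 190, 149 and 169 CPM and was not called (-0.22 ± 0.12). Nrp1 and Nrp2, the neuropilin co-receptors, rose by 0.67 ± 0.11 and 1.01 ± 0.20. Igf1r (61.1, 53.2, 65.2 and 52.5 CPM) and Crlf2 (108, 98.6, 104 and 81.0 CPM) were not called. Pdgfra, Pdgfrb, Tyro3, Flt1, Kdr and Kit had 0 to 5 UMIs per library in macrophages.

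Il7r, the chain that TSLP's receptor shares with that of IL-7, was called lower in the macrophage, other T, Treg, ILC2 and dendritic cell gates. In Tregs it fell from 656 and 637 CPM to 221 and 262 CPM, by 1.49 ± 0.07, and in ILC2 from 1326 and 1337 CPM to 850 and 998 CPM, by 0.59 ± 0.08. In macrophages it stood at 39.1, 19.7, 9.12 and 6.64 CPM. In other T cells the change was -1.36 ± 0.11 and in dendritic cells -1.24 ± 0.13 (all edgeR adjusted p at most 0.0036). It was the 1 receptor gene called in the other T, Treg, ILC2 and dendritic cell gates, of 8, 7, 5 and 6 tested. Of all genes tested there, 2.16%, 5.57%, 5.15% and 0.978% were called.

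Among ligands of the same families in macrophages, Pdgfb rose from 9.17 and 18.6 CPM to 87.9 and 70.4 CPM, 5.53-fold, beside Pdgfc with no call. It was 1 of 2 tested genes of 6 in its list, and Pdgfa (0.54 ± 0.29) was not called. Igfbp4, which binds IGF1, rose from 370 and 391 CPM to 540 and 565 CPM (0.49 ± 0.09), 1 of 2 tested of 9 IGF-binding genes. Of 28 other growth factors, 7 were tested, 1 rose and 2 fell, in a gate where 17.1% of all genes were called. Bmp2 rose from 13.4 and 13.2 CPM to 36.0 and 56.5 CPM, Osm (oncostatin M) fell from 19.6 and 29.6 CPM to 6.78 and 6.64 CPM, and Gdf15, a stress-induced factor, fell from 169 and 188 CPM to 66.0 and 130 CPM. Of 15 other adipokines, 6 were tested. Retnla rose (3042, 1903, 3820 and 3669 CPM), and Angptl4, an inhibitor of lipoprotein lipase, and Nucb2 fell by 1.02 ± 0.21 and 0.60 ± 0.14. In Tregs, Angptl2 rose from 21.7 and 19.8 CPM to 41.4 and 38.3 CPM. It was 1 call among 5 tested genes of its list, where 5.57% of all genes were called.

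Of 12 genes of NAD salvage and use, 6 were tested in macrophages and 2 were called in each direction, beside Nampt with no call. Of all genes tested in that gate, 17.1% were called. Cd38, a NAD-consuming enzyme, fell from 343 and 268 CPM to 102 and 99.6 CPM, by 1.64 ± 0.13. Nmnat3 fell by 0.99 ± 0.30, and Parp1 and Nadk rose by 0.71 ± 0.17 and 0.62 ± 0.15. Vegfa and Nampt are known targets of the hypoxia response, and of 16 other hypoxia target genes 12 were tested in macrophages, of which 4 were called lower and 8 were not called. Pfkfb3, an activator of glycolysis, fell from 161 and 174 CPM to 25.8 and 30.6 CPM, 6.30-fold, and Mxi1, Kdm3a and Higd1a fell by 1.07, 0.64 and 0.53. The median of the 12 was 0.10, beside 0.00 for all 9272 genes tested, of which 758 were called lower. In 6 other gates 1 or 2 of these genes were called. The other T, Treg, γδT and ILC2 gates had 16 tested each, and 2.16%, 5.57%, 4.64% and 5.15% of all genes called. The dendritic cell and stromal gates had 10 and 6 tested, and 0.978% and 0.544% of all genes called. Pdk1 fell in ILC2 (-1.15 ± 0.20) and other T cells (-0.62 ± 0.11), and Pgk1 fell in Tregs (-0.29 ± 0.07). Ero1l rose in ILC2 (0.52 ± 0.12), and Bhlhe40 rose in γδT and dendritic cells (1.56 ± 0.31 and 0.96 ± 0.14). Hk2 rose in γδT cells (1.77 ± 0.25). Bnip3 fell in the stromal gate (-2.75 ± 0.38), 1 call among 6 tested genes of the list, whose median there was 0.036. The part of hypoxia in any change of the 8 genes was not tested.

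**Figure D5:**
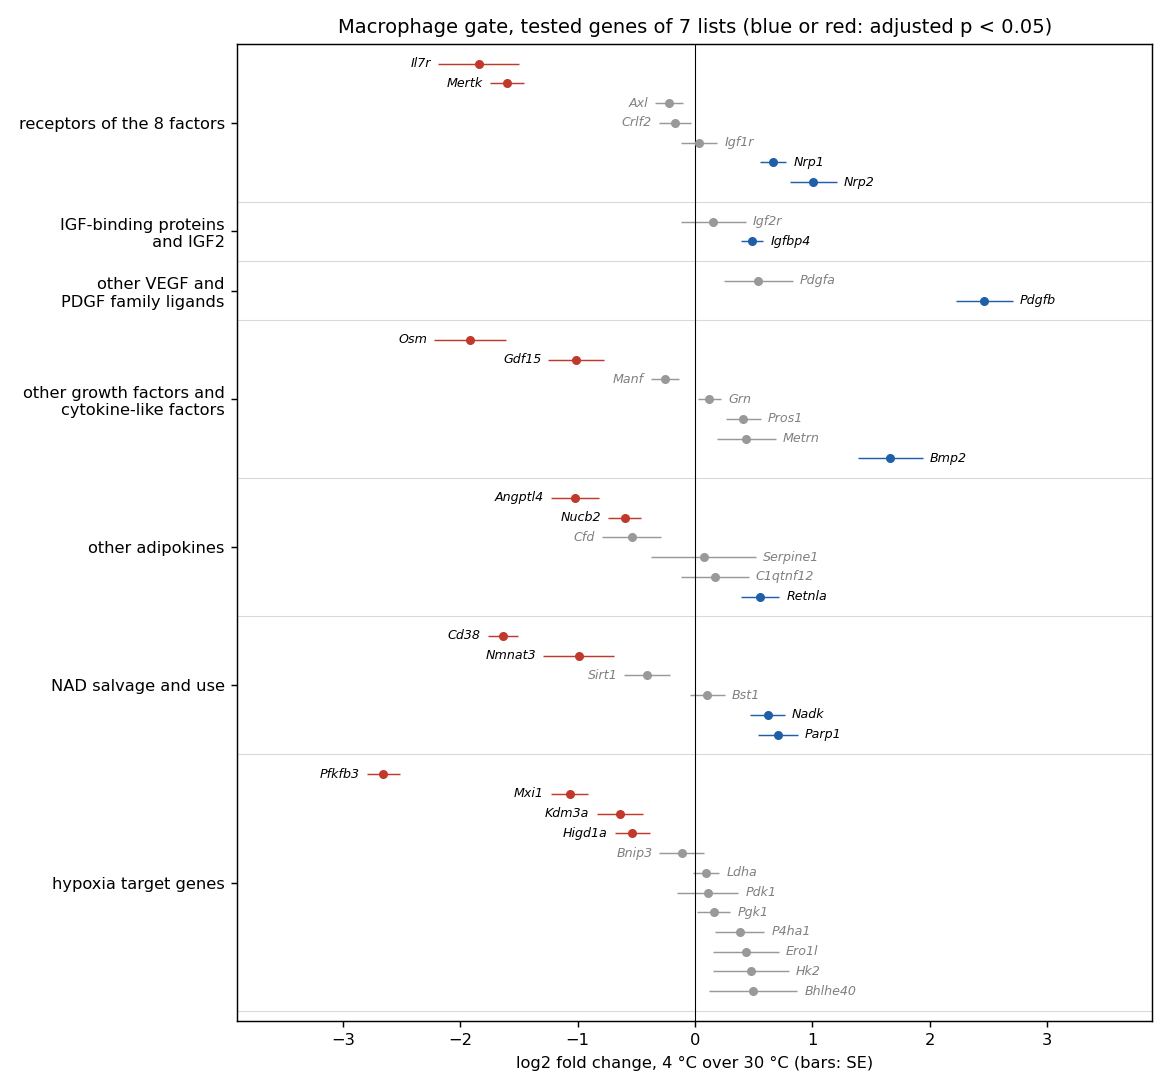
Change of the tested genes of 7 lists in the macrophage gate (x axis, log2 fold change from 30 °C to 4 °C, bars SE), grouped by list on the y axis. Blue and red mark genes called higher and lower, from Pdgfb (2.47) to Pfkfb3 (-2.65), and grey marks genes not called.

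Likeness in pattern was described over the 30 sums of gate and library that held at least 20 cells, as Pearson's r of log2(CPM + 1) among 12017 genes with at least 200 UMIs. The sums share libraries and gates, so these values are given without a test. Igf1 and Gas6 were each other's nearest gene (r = 0.99), followed by Tgfbi and Lpl for Igf1 (both r = 0.97) and by Plod1 (0.98) and Tgfbi (0.97) for Gas6. Tslp was nearest to Rgl1 (0.97), Wtip (0.96) and Tgfbi (0.95), and Pdgfc to Snx24 (0.96), Agmo (0.94) and Abca9 (0.94). Metrnl was nearest to Anxa5 (0.93), Itpripl2 and Itm2b (both 0.92), and Nampt to Usp40 (0.91), Qk (0.88) and Ap3m1 (0.87). Vegfa was nearest to Entpd2, Mageh1 and Tmed3 (0.89 to 0.90), and Vegfb, at 0.71, 0.71 and 0.69 for Stab2, Angpt2 and Zfp580, had no close gene.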

How the data were processed

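ChAT-eGFP+ cells of IWAT SVF were profiled in 4 libraries (2 at 30 °C, 2 at 4 °C, each from 4 pooled mice). The deposited matrices hold raw UMI counts per gene and cell, made by the authors with Cell Ranger and STAR on mm10. The file headers name Cell Ranger 3.0.0, and the submitters' processing notes list 3.1.0 and Seurat 4.2.0. Only counts were used. Cells with over 200 and under 5000 genes and under 7.5% mitochondrial UMIs were kept, as the study's methods state. No doublet caller was run, and cells with markers of 2 or more types were left out of the gates. Plasma cells with B markers and T cells with ILC2 markers were kept in the plasma and T gates. Cells were gated by 6 marker genes for each of 10 types, and T cells and macrophages were divided further, without clustering. UMIs were summed per library and gate and tested with edgeR 4.0.16 under R 4.3.3 (TMM, edgeR's filter on low counts, quasi-likelihood test, Benjamini-Hochberg over all genes tested, threshold 0.05), in gates with at least 20 cells in each library. Differences of changes between gates were tested as an interaction, with the sums of both gates in 1 fit and library as a factor. The SE is the size of the log2 fold change divided by the square root of F. All adjusted p values are from edgeR unless DESeq2 1.42.0 is named. Intervals of levels are exact 95% Poisson intervals and cover counting error only. Shares of cells at equal depth are expected shares at 4000 UMIs per cell.

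The alternatives were DESeq2, RLE size factors, no filter on low counts, a mitochondrial limit of 15%, removal of the upper gene limit, stricter gates, the replicate number as a block, and each library left out in turn. Named genes are all 8 members, of each list up to 3 rises and 3 falls with the largest fold among those past the threshold in each gate, and the 3 genes most alike to each member. Other genes, such as Axl, Igf1r, Crlf2, Pdgfa and single marker genes, were added with their values known. The members and lists were chosen with earlier results of these data known. Mast cells, basophils and neutrophils gave 0 to 3 cells per library and are not described.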

Additional observations from a re-analysis of the deposited data

Results flagged for a closer look

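Metrnl changed in opposite directions in macrophages (0.70 on the log2 scale) and in ILC2 (-1.79), in 4 of 4 pairs of a cold and a 30 °C library each, and the difference of 2.46 ± 0.26 passed the test of the interaction (edgeR adjusted p = 2.7e-11). Metrnl was named with results of these data known, so that p-value is not independent support. Over the 9 alternatives fitted, this difference lay between 2.33 and 3.09, with adjusted p from 1.9e-18 to 0.023. The change of Nampt in macrophages (0.06) differed from that in the stromal gate (-3.26) by 3.29 ± 0.46 (edgeR adjusted p = 7.0e-10), and over the 8 alternatives fitted by 2.74 to 4.53, a comparison added with the values known. The stromal gate held 20 to 29 cells per library, and its median depth was 4272 and 6978 UMIs per cell at 30 °C and 13192 and 12154 at 4 °C. The part of depth in the change of Nampt was not tested.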

How the results depend on the processing

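Of 519 refitted changes of the members, 462 kept their direction and side of the threshold, 18 lost the call, 14 gained it and 25 turned, and the cause was not tested. Igf1 and Tslp in macrophages were called under each alternative. The number of members called moved with DESeq2 to 1 in all kept cells, 0 in Tregs and from 4 to 3 in macrophages and in the Mrc1 and Folr2 subgate. Those fits called 848, 300, 771 and 700 of all genes. With no filter on low counts the number of members called moved to 1 in B cells, 1 in plasma cells, 2 in Tregs and 2 in stromal cells. There 770, 383, 1158 and 134 of all genes were called, against 157, 68, 604 and 18 in the main fits. In Tregs it moved to 0 with the upper gene limit removed or with stricter gates, fits that called 513 and 230 of all genes. Stricter gates also gave 3 in macrophages and in the subgate. Leaving out 1 replicate gave 0 to 4 in all kept cells, 2 to 4 in macrophages, 3 to 5 in the subgate, 0 to 1 in B cells, Tregs and ILC2, and 0 to 2 in stromal cells. With that limit removed, 1 member differed between macrophages and other T cells, and leaving out 1 replicate gave 0 to 1 against other T cells and against dendritic cells.

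None of the 25 that turned was called in the fit in which it turned or with all libraries and the settings of the report. Nampt was -0.083 in macrophages with stricter gates, 0.10 in other T cells and -0.062 in ILC2 with the upper gene limit removed. Metrnl in other T cells was 0.011 with no filter, 0.25 with stricter gates and 0.0037 with the replicate block. Leaving out 1 replicate, Pdgfc lay between -0.073 and 0.36 in all kept cells, -0.66 and 0.11 in macrophages and -0.62 and 0.19 in the Mrc1 and Folr2 subgate. Nampt lay between -0.21 and 0.39 in macrophages, -0.44 and 0.21 in the subgate, -0.14 and 0.057 in other T cells and -1.08 and 0.68 in γδT cells. Metrnl lay between -0.49 and 0.85 in plasma cells, -0.21 and 0.18 in other T cells and -0.51 and 0.17 in dendritic cells. Gas6 lay between -0.13 and 1.51 in B cells and -0.59 and 1.07 in stromal cells. Vegfb lay between -0.0075 and 0.21 in B cells, -0.064 and 0.22 in Tregs, -0.069 and 0.44 in ILC2 and -0.43 and 0.16 in dendritic cells.

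With the replicate number as a block, 1 member (Nampt) was called in B cells, and calls over all genes went from 1584 to 1801 in macrophages, 157 to 515 in B cells, 604 to 1280 in Tregs, 18 to 32 in stromal cells, 66 to 8 in all kept cells, 68 to 31 in plasma cells, 410 to 166 in γδT cells and 459 to 292 in ILC2. The block moved no other count of members called. Same-numbered libraries correlated at -0.25 to 0.32 in their deviations over the gates, and the numbers name separate pools of mice. Over all alternatives, calls of all genes ranged from 636 to 2044 in macrophages, 16 to 1166 in B cells, 111 to 1280 in Tregs, 0 to 990 in ILC2, 0 to 848 in all kept cells and 0 to 178 in stromal cells. They ranged from 150 to 942 in other T cells, 0 to 798 in γδT cells, 7 to 383 in plasma cells, 25 to 370 in dendritic cells and 700 to 1879 in the subgate. With 2 libraries per temperature, leaving 1 out assumes that the lone library varies like the others. The γδT and stromal gates had too few cells for a fit with stricter gates. Interactions were not run with DESeq2 or the block. Vegfa was tested in all kept cells and in the plasma and stromal gates and was below the filter on low counts in the other gates fitted.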

Other observations

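The cells of more than 1 gate, which may be doublets, had 10.0 to 32.3 CPM of Metrnl and 12.2 to 70.4 CPM of Igf1 at a median of 15235 to 16530 UMIs per cell, and held 8.91% to 13.8% of the Igf1 UMIs of a library. Cells of no gate had 8.43 to 35.8 CPM of Igf1 and 15.6 to 33.6 CPM of Vegfb. Retnla in the Mrc1 and Folr2 subgate stood at 2947 and 2473 CPM at 30 °C and at 4286 and 4515 CPM at 4 °C, and Pdgfb there stood at 6.96, 9.51, 69.3 and 68.8 CPM, a rise of 3.00 ± 0.25 on the log2 scale (edgeR).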
